A study of Homo sapiens with 4 samples.

Results

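The 10 genes described here are responsive to or part of bone morphogenetic protein (BMP) signalling: ID1, ID2, ID3, ID4, ATOH8, BAMBI, SMAD6, SMAD7, SMAD9 and NOG. They were found by gene symbol in a table of 20329 genes, and each symbol had 1 entry. The set was chosen with the knockdown values already known, so the differences between knockdown and control given for its genes are a description and carry no test. Messenger RNA was sequenced from 4 cultures, 1 library each, of cells that stably expressed an shRNA from a lentiviral vector. BM1 (1833) and LM2 (4175) are derivatives of MDA-MB-231, a human triple-negative breast cancer line, and the labels assign them to bone and lung metastasis. Cells of either line carried a non-specific shRNA (control) or an shRNA against hnRNPM (knockdown), an RNA-binding protein that regulates splicing, and each of the 4 combinations gave 1 library. The labels do not say whether a line was a single clone or which shRNA sequences were used. With 1 library per line and treatment, effects of the shRNA vector, of the culture and of the loss of hnRNPM cannot be told apart.

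BMPs are secreted ligands that bind paired type I and type II receptor kinases at the cell surface, which phosphorylate the receptor SMADs SMAD1, SMAD5 and SMAD9. These join SMAD4, enter the nucleus and activate genes, of which the ID genes are the classic readout. ID proteins have a helix-loop-helix but no DNA-binding region, and they hold E proteins such as TCF3 in inactive dimers. Several target genes encode inhibitors of the pathway (SMAD6, SMAD7, BAMBI and the secreted antagonist noggin), so a rise of these genes can accompany signalling and also restrain it. In breast cancer, ID1 and ID3 are known for their part in lung colonization by MDA-MB-231 derivatives.

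Sequence just upstream of the start site is shown for the 4 ID genes, which were all higher in the knockdown libraries, and for SMAD6 and BAMBI, whose windows hold letters that SMAD proteins are known to bind. The windows are the 250 bases before the start site in RefSeq (GRCh38.p14), 5′ to 3′ on the gene's strand. Capitals mark the TATA core TATAA, the box CCAAT, the GC-rich element GGCGCC and the palindrome GTCTAGAC on either strand, and these motifs were chosen with the results known.
ID1 (chr20:31605039-31605288, plus strand): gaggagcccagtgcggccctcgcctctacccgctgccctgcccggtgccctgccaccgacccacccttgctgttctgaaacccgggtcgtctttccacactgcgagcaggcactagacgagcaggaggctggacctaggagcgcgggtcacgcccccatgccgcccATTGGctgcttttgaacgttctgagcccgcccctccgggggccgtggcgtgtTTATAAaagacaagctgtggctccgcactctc
ID2 (chr2:8681806-8682055, plus strand): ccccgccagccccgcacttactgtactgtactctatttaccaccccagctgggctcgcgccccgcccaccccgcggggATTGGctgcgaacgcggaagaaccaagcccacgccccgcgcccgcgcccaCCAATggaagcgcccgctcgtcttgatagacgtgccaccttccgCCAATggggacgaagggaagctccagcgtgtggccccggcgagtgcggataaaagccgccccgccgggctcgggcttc
ID3 (chr1:23559502-23559751, minus strand): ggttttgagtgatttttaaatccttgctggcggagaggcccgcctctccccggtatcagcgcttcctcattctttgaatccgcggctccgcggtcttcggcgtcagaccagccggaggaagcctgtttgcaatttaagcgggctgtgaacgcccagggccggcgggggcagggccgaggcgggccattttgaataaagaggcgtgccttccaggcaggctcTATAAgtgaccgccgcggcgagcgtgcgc
ID4 (chr6:19837120-19837369, plus strand): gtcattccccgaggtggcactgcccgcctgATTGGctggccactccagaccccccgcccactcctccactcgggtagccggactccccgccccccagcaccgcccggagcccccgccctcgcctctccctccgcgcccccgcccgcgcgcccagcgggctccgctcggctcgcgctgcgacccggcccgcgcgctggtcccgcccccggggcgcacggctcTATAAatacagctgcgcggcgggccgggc
SMAD6 (chr15:66701986-66702235, plus strand): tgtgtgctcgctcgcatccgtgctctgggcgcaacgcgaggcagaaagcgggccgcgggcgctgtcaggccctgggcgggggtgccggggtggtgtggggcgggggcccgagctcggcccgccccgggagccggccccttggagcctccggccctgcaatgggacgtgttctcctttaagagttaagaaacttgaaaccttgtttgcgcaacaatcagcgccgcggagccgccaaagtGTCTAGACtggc
BAMBI (chr10:28677271-28677520, plus strand): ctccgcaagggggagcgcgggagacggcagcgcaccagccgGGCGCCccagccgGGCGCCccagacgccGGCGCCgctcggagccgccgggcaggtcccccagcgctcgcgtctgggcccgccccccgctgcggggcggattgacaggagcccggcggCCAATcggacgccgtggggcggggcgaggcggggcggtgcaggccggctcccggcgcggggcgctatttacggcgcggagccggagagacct

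A RefSeq window was found for 9 of the 10 genes. TATAA, the core of a TATA box, began 29 to 32 bases before the start site in ID1, ID3 and ID4 and was absent from the ID2 window. In ID1 the letters matched on both strands in overlapping positions. SMAD7 has 3 start sites in the table, and the window of 1 of them held TATAA. This motif was in 18.9% of all 35116 windows of this length. CCAAT, the box bound by NF-Y, was in the windows of ID1, ID2, ID4 and BAMBI and in 32.0% of all windows. ID2 held it at 3 places. GGCGCC, a GC-rich SMAD motif, was found in the BAMBI window alone, at 3 places, and in 16.4% of all windows. The BAMBI window is 81.2% GC, against a median of 58.0% over all windows. Its matches were not set against windows of like GC content. GTCTAGAC, the palindromic SMAD-binding element, began 12 bases before the start site in the SMAD6 window and in 0.182% of all windows. The shorter element CAGAC was searched as well and was found in ID3, ID4, BAMBI and SMAD7 and in 38.0% of all windows. GTCTAGAC does not contain CAGAC on either strand. These matches describe letters in a short window and show no binding.

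Depth was read from the step structure of low values and came to between 22781000 and 41480000 fragments per library, with both knockdown libraries below both controls, on the reading that 1 step is 1 fragment. Values midway between whole steps were 9.18% to 10.7% of the low values in the 4 libraries, with 35.6% to 43.1% at whole steps. If the distance to such a midway value were 1 fragment in all 4, every fragment number would be larger by the same factor, but if that held in the knockdown libraries alone, their depths would lie above those of the controls. HNRNPM, the targeted gene, was at 171 FPKM (fragments per kilobase, scaled to the fragments mapped in a library) in control BM1 cells and 28.4 with the knockdown, which left 16.6%. In LM2 it was at 132 and 20.3 FPKM, which left 15.4%. Mitochondrial genes took 8.80% to 9.31% of the FPKM sum in the controls and 11.8% to 12.8% in the knockdown libraries. All 6 markers listed for MDA-MB-231 were above 1 FPKM on average, with sums from 2183 to 3262 FPKM. Of the receptors that define triple-negative cells, ERBB2 was at 13.5 to 21.9 FPKM, while ESR1 and PGR were not analysed here. Endothelial markers were low (3 of 6 listed, none above 1 FPKM on average, sums of 0.685 and 1.55 FPKM in the controls and 0.541 and 0.791 in the knockdown libraries, TEK under 0.1 in every library). Fibroblast markers (5 of 6 listed, 2 above 1 FPKM on average) summed to 3.55 and 30.02 FPKM in the BM1 and LM2 controls and to 15.2 and 79.3 in the corresponding knockdown libraries, with COL1A1 as the largest term in each library. Leukocyte markers (2 of 6 listed, CD68 and CD14) summed to 25.1 and 11.5 FPKM in the controls and to 5.93 and 9.13 in the knockdown libraries. The 2 went opposite ways in LM2, where CD68 had 9.50 FPKM in the control and 2.04 with the knockdown, and CD14 had 1.97 and 7.09. In BM1 CD68 had 23.5 and 4.46 FPKM, and CD14 had 1.62 and 1.47. The sums of fibroblast and leukocyte markers thus differed between control and knockdown libraries, and their part in the results was not tested. In such bulk samples, fewer cells with a transcript and less transcript per cell cannot be told apart.

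In both lines most of these genes were higher in the knockdown library than in the control. Knockdown minus control, with its sign, was larger in BM1 for 8 of the 10. These include SMAD9, which was higher with the knockdown in BM1 and lower in LM2. The same count was not made over all tested genes, more of which were 2-fold higher in BM1 than in LM2, as given below. The difference is given as knockdown minus control on the log2(FPKM + 1) scale, which understates the difference of low genes, and a value of 1 or more is called 2-fold. In BM1, 7 of the 10 genes were at least 2-fold higher (ID1, ID2, ID3, ID4, ATOH8, BAMBI and SMAD7), where 10.1% of the 13928 genes with a mean of at least 1 FPKM were. In LM2, 5 of the 10 were (ID2, ID3, ATOH8, BAMBI and SMAD6), where 3.83% of all tested genes were. ID2, ID3, ATOH8 and BAMBI passed this mark in both lines, as did 1.92% of tested genes. None of the 10 was 2-fold lower in either line by this rule. The plain FPKM ratio of SMAD9 in LM2 was 0.43, at about 56 and 16 fragments. The median of the 10 genes was 2.33 in BM1 and 0.96 in LM2, against 0.00 and -0.04 over all tested genes. Since the set was chosen on this contrast, nothing follows from these shares about the genes as a group. For 8 of the 10, both knockdown libraries lay above both controls, a pattern seen in 21.8% of tested genes. A mean of at least 1 FPKM was reached by 9 of the 10 genes, and ID2, ID4 and ATOH8 reached it only through their knockdown libraries, while SMAD9 stayed below it.

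**Figure D1:**
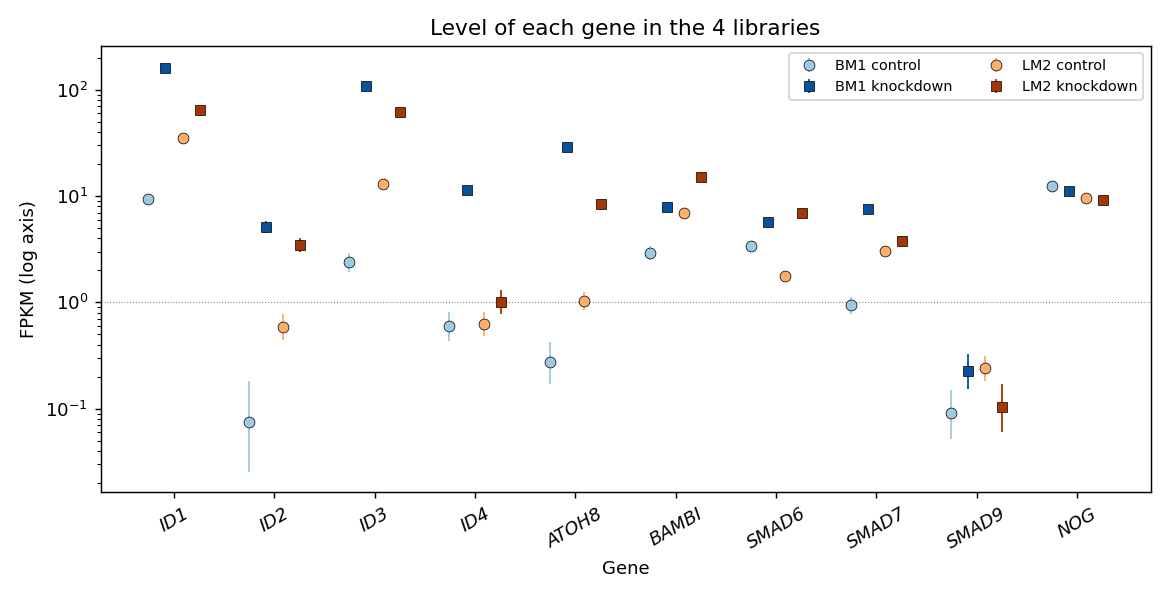
FPKM on a log axis of the 10 genes in each of the 4 libraries; circles are controls, squares are knockdown libraries, bars are 95% Poisson intervals of the estimated fragment number (counting error only), and the dotted line is 1 FPKM. ID1 and ID3 are the highest of the 10 in both knockdown libraries, and NOG is nearly level across the 4.

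The ID genes come first. ID1 (ENSG00000125968.8, chr20:30193086-30194318, plus strand), which inhibits differentiation factors of the basic helix-loop-helix class, read 9.37 FPKM in control BM1 cells and 162 after knockdown. The LM2 values were 35.0 FPKM without and 64.8 with the knockdown. The BM1 libraries therefore held both the lowest and the highest ID1 level of the series. The ratio of knockdown to control was 17.2 in BM1 and 1.85 in LM2, or 3.97 and 0.87 on the log2(FPKM + 1) scale. Gene positions are those of the deposited table, for which the submitters' processing notes name GRCh37, and none of the 10 genes overlaps another gene of the table.

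ID3 (ENSG00000117318.8, chr1:23884409-23886285, minus strand), the closest companion of ID1 in function, stood at 2.39 FPKM in control BM1 cells and 108 after knockdown, and LM2 cells had 12.9 and 61.6 FPKM. Both knockdown libraries exceeded both controls. The ratio was 45.3 in BM1 and 4.79 in LM2. On the log2(FPKM + 1) scale the difference of 5.01 in BM1 ranked 2nd of all 13928 tested genes, and the 2.17 in LM2 ranked 49th. ID1 ranked 8th in BM1 and 711th in LM2. Like the differences, these ranks are a description, and they hold for this scale only. With 0.1 added to FPKM in place of 1, the BM1 difference of ID3 (5.44) lay below that of ATOH8 (6.28).

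ID2 (ENSG00000115738.9, chr2:8818975-8824583, plus strand), which also binds the retinoblastoma protein, was much lower per length. Its level was 0.0753 FPKM in control BM1 cells and 5.16 after knockdown, with 0.592 and 3.47 FPKM as the LM2 pair. The BM1 control value rests on about 5 fragments, with a 95% Poisson interval of 0.0255 to 0.183 FPKM that covers counting error only, so no ratio is given for BM1. The difference was 2.52 in BM1 and 1.49 in LM2 (log2(FPKM + 1)), and the knockdown libraries did not overlap the controls.

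ID4 (ENSG00000172201.10, chr6:19837617-19840915, plus strand), a family member studied in basal mammary cells, had 0.606 FPKM in control BM1 cells and 11.5 after knockdown. The LM2 pair was 0.624 and 1.02 FPKM. The controls of the lines were almost equal, and the BM1 knockdown library stood alone at the top. The difference was 2.96 in BM1 and 0.31 in LM2 on the log2(FPKM + 1) scale. In LM2 the counting intervals of the control (0.480 to 0.806 FPKM, about 61 fragments) and the knockdown library (0.785 to 1.30 FPKM, about 65 fragments) overlapped at their edges.

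Summed over the 4 genes, the ID family came to 12.4 FPKM in control BM1 cells and 286 after knockdown, and to 49.0 and 131 FPKM in the LM2 pair. That is a ratio of 23.0 in BM1 and 2.67 in LM2. ID1 made up 75.3% of the sum in the BM1 control and 71.3% in the LM2 control, and ID3 19.2% and 26.2%. In the knockdown libraries ID1 was at 56.5% of the sum in BM1 and 49.5% in LM2, and ID3 at 37.7% and 47.1%. Thus the level of ID3 came close to that of ID1 in the LM2 knockdown library, where the ratio of ID1 to ID3 was 1.05, from 2.72 in the LM2 control. In BM1 this ratio was 3.93 in the control and 1.496 in the knockdown library. ID2 stayed under 2.7% of the family sum in every library.

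Among the other transcriptional targets, ATOH8 (ENSG00000168874.12, chr2:85978467-86015189, plus strand), a basic helix-loop-helix factor, read 0.273 FPKM in control BM1 cells and 28.8 after knockdown. The LM2 pair was 1.02 and 8.38 FPKM. As with ID3, both knockdown libraries lay above both controls and the BM1 libraries were the extremes. The BM1 control rests on about 21 fragments, with an interval of 0.171 to 0.422 FPKM. The ratio was 105 in BM1 and 8.18 in LM2, and the differences of 4.55 and 2.21 on the log2(FPKM + 1) scale ranked 4th and 43rd of all tested genes. ATOH8 passed the filter only through its knockdown libraries, so a higher knockdown level was built into its being ranked. These ranks are a description and no support.

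**Figure D2:**
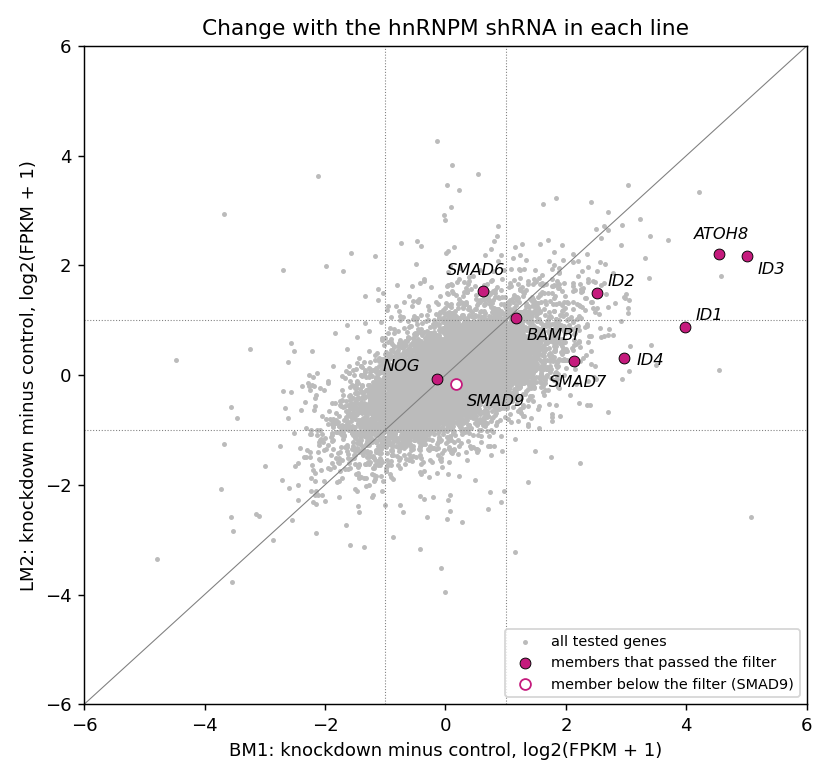
Knockdown minus control on the log2(FPKM + 1) scale in BM1 (x axis) and LM2 (y axis) for all 13928 tested genes (grey) and the 10 described genes (pink, SMAD9 open because it is below the filter); dotted lines mark 2-fold and the solid line equal differences. ID1, ID3, ID4, ATOH8 and SMAD7 lie below the solid line, SMAD6 lies above it, and NOG and SMAD9 lie near the centre.

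The genes for inhibitors of the pathway differed among themselves. BAMBI (ENSG00000095739.10, chr10:28966271-28971868, plus strand), a receptor-like protein without a kinase that blocks receptor pairing, read 2.95 FPKM in control BM1 cells and 7.88 after knockdown, against 6.88 and 15.2 FPKM for the LM2 pair. Its difference was nearly the same in both lines, 1.17 in BM1 and 1.04 in LM2 (log2(FPKM + 1)), and the LM2 library was the higher one under either treatment.

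SMAD6 (ENSG00000137834.14, chr15:66994566-67075186, plus strand), an inhibitory SMAD that acts mainly on BMP receptors, had 3.36 FPKM in control BM1 cells and 5.69 after knockdown, and 1.76 and 6.96 FPKM as the LM2 pair. It was the only one of the 8 genes higher in both lines whose difference was larger in LM2 (1.53) than in BM1 (0.62, log2(FPKM + 1)). SMAD7 (ENSG00000101665.8, chr18:46446223-46477081, minus strand), an inhibitory SMAD that acts on both BMP and TGF-beta receptors, went the other way. It read 0.942 FPKM in control BM1 cells and 7.53 after knockdown, while the LM2 pair was 3.05 and 3.82 FPKM. The differences were 2.13 in BM1 and 0.25 in LM2 (log2(FPKM + 1)). The counting intervals of the LM2 control (2.81 to 3.32 FPKM) and knockdown library (3.48 to 4.18 FPKM) did not overlap, yet no replicate shows how such a difference compares with the spread between cultures.

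NOG (ENSG00000183691.4, chr17:54671060-54672951, plus strand), which encodes noggin, a secreted protein that binds BMPs and keeps them from their receptors, was nearly level. Control BM1 cells had 12.5 FPKM and knockdown BM1 cells 11.2, and the LM2 pair was 9.64 and 9.19 FPKM, with differences of -0.14 and -0.06 on the log2(FPKM + 1) scale. After removal of the trends with GC content and transcript length these became 0.16 and 0.08. SMAD9 (ENSG00000120693.13, chr13:37418968-37494902, minus strand), a receptor SMAD, read 0.0917 FPKM in control BM1 cells and 0.228 after knockdown, with 0.244 and 0.105 FPKM as the LM2 pair. Its 4 values rest on about 16, 29, 56 and 16 fragments, in the same order, and the lines went opposite ways by 0.17 and -0.17 (log2(FPKM + 1)). FPKM values compare levels per length, and on that scale NOG was the highest of the 10 genes in the BM1 control and the 5th in the BM1 knockdown library.

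In the BM1 control the order of levels was NOG, ID1, SMAD6, BAMBI, ID3, SMAD7, ID4, ATOH8, SMAD9 and ID2. Counting intervals overlapped between SMAD6 and BAMBI, between BAMBI and ID3, between SMAD7 and ID4 and between SMAD9 and ID2. In the BM1 knockdown library it was ID1, ID3, ATOH8, ID4, NOG, BAMBI, SMAD7, SMAD6, ID2 and SMAD9, with overlapping intervals between ID4 and NOG, between BAMBI and SMAD7 and between SMAD6 and ID2. In the LM2 control the order was ID1, ID3, NOG, BAMBI, SMAD7, SMAD6, ATOH8, ID4, ID2 and SMAD9, with overlapping intervals between ID4 and ID2. ID1 and ID3 again led in the LM2 knockdown library, followed by BAMBI, NOG, ATOH8, SMAD6, SMAD7, ID2, ID4 and SMAD9. There the intervals of ID1 (62.1 to 67.6 FPKM) and ID3 (59.0 to 64.3 FPKM) overlapped, as did those of NOG and ATOH8 and those of SMAD7 and ID2.

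The 2 lines were compared under each treatment. In the controls, 8 of the 10 genes were higher in LM2. On the log2(FPKM + 1) scale ID1, ID3 and SMAD7 were at least 2-fold higher, where 6.98% of tested genes were. ID1 was at 3.73 times the BM1 level and ID3 at 5.39 times. ATOH8 (3.75), SMAD9 (2.66) and BAMBI (2.34) also had plain FPKM ratios above 2-fold, but not on the log2(FPKM + 1) scale. The same held for ID2, whose BM1 control rests on about 5 fragments. In the knockdown libraries only BAMBI and SMAD6 were higher in LM2. ID1, ID4 and ATOH8 were at least 2-fold higher in BM1, where 4.63% of tested genes were, at 2.49, 11.3 and 3.44 times the LM2 level. SMAD9 had a plain FPKM ratio of 2.18 there, but was not 2-fold higher on the log2(FPKM + 1) scale. The counts of signs were not made over all tested genes, so nothing particular to these 10 follows from them. Among the 8 in the controls, ID4 was higher by 0.02 (log2(FPKM + 1)), and SMAD9 rests on about 16 and 56 fragments. The differences between lines share their libraries with the knockdown differences above: a gene low in the BM1 control has, from that library alone, both a larger BM1 difference and a larger LM2 excess among controls. Whether the knockdown difference itself differs between lines cannot be tested with 4 libraries.

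**Figure D3:**
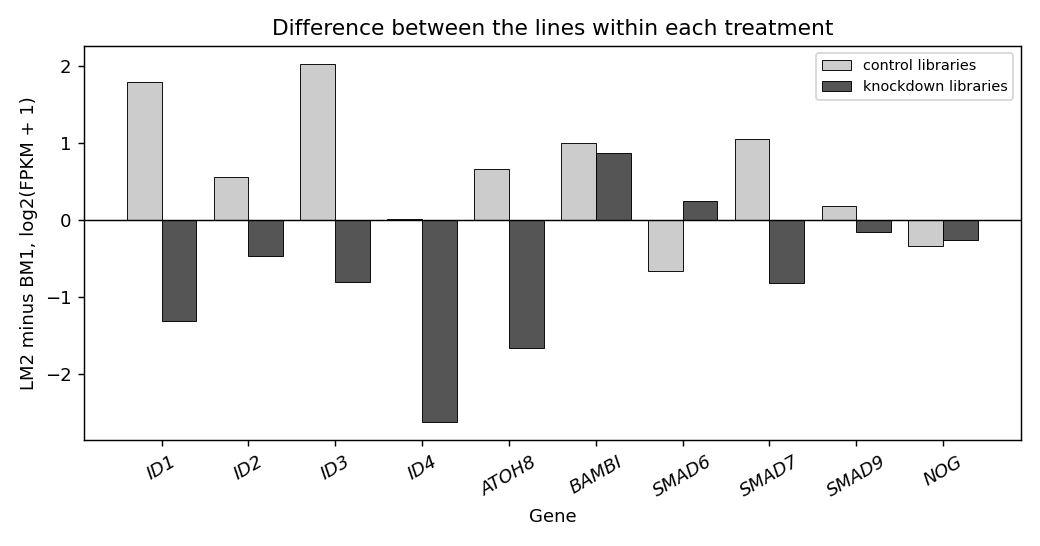
LM2 minus BM1 on the log2(FPKM + 1) scale for each gene in the control libraries (light bars) and the knockdown libraries (dark bars), 1 library per line and treatment, without error bars because there are no replicates. ID1, ID2, ID3, ID4, ATOH8, SMAD7 and SMAD9 change sign from control to knockdown, as does SMAD6 in the other direction, while BAMBI stays positive and NOG negative.

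Averaged over treatments, the contrast of lines was not used in choosing the genes and was tested with limma (terms for line and treatment, Benjamini-Hochberg over all 13928 genes). Of the 9 genes that passed the filter, 0 were below an adjusted p of 0.05, where 4.35% of tested genes were. An unadjusted limma p under 0.05 was found for 3114 of the 13928 tested genes and, at a similar share, for 2 of the 9. These were BAMBI, higher in LM2 by 0.93 ± 0.25 (log2(FPKM + 1), standard error, limma adjusted p 0.0776), and ID4, with a difference of -1.31 ± 0.51 (adjusted p 0.181). ID1 differed by 0.24 ± 0.58 and ID3 by 0.62 ± 0.54, and neither had an unadjusted p under 0.05. The spread in this test is the difference between the lines in the knockdown change, with 1 residual degree of freedom per gene, so it is widest for the genes named above as unequal. Limma draws it toward a value shared by all genes. BAMBI was higher in LM2 under both treatments, and ID4 was 0.02 higher in the LM2 control and differed by -2.63 (LM2 minus BM1) between the knockdown libraries. ID2, ID4 and ATOH8 passed the filter only through their knockdown libraries, which limits what this test says of them. For ID4 it was the BM1 knockdown library (11.5 FPKM) that carried it past the filter. The same library sets its difference between lines, so its p-value is no support for one.

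The other genes of the pathway, which are not among the 10, were tested in the knockdown contrast of the same limma fit. Of 51 tested genes in 7 lists, 5 rose and 2 fell below an adjusted p of 0.05, where 2.71% of all tested genes rose and 2.76% fell. The lists were chosen with earlier results of these data known. These counts, and those per list below, are therefore a description, and nothing follows from them about the pathway as a group. The 5 that rose were the ligands BMP4 and TGFB2, the coreceptor TGFBR3, the antagonist FST and the corepressor SKIL. The 2 that fell were the receptors ACVR1 and TGFBR2. All 7 calls were lost with quantile normalization, without the filter on low values, without pairing the libraries by line and in each fit without 1 of the 4 libraries, and 6 of the 7 were lost with a pseudocount of 0.1. ACVR1 was also lost with a pseudocount of 0.5 (adjusted p 0.0506) and, like TGFBR3, with the GC and length trend removed (adjusted p 0.0559 and 0.0598), so it stayed below 0.05 in 1 of 11 alternatives and TGFBR3 in 2. Quantile normalization gave 3255 genes at an unadjusted p under 0.05, no filter 3735, no pairing 1548 and the fits without a library 860 to 1943, each with 0 genes called by limma.

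**Figure D4:**
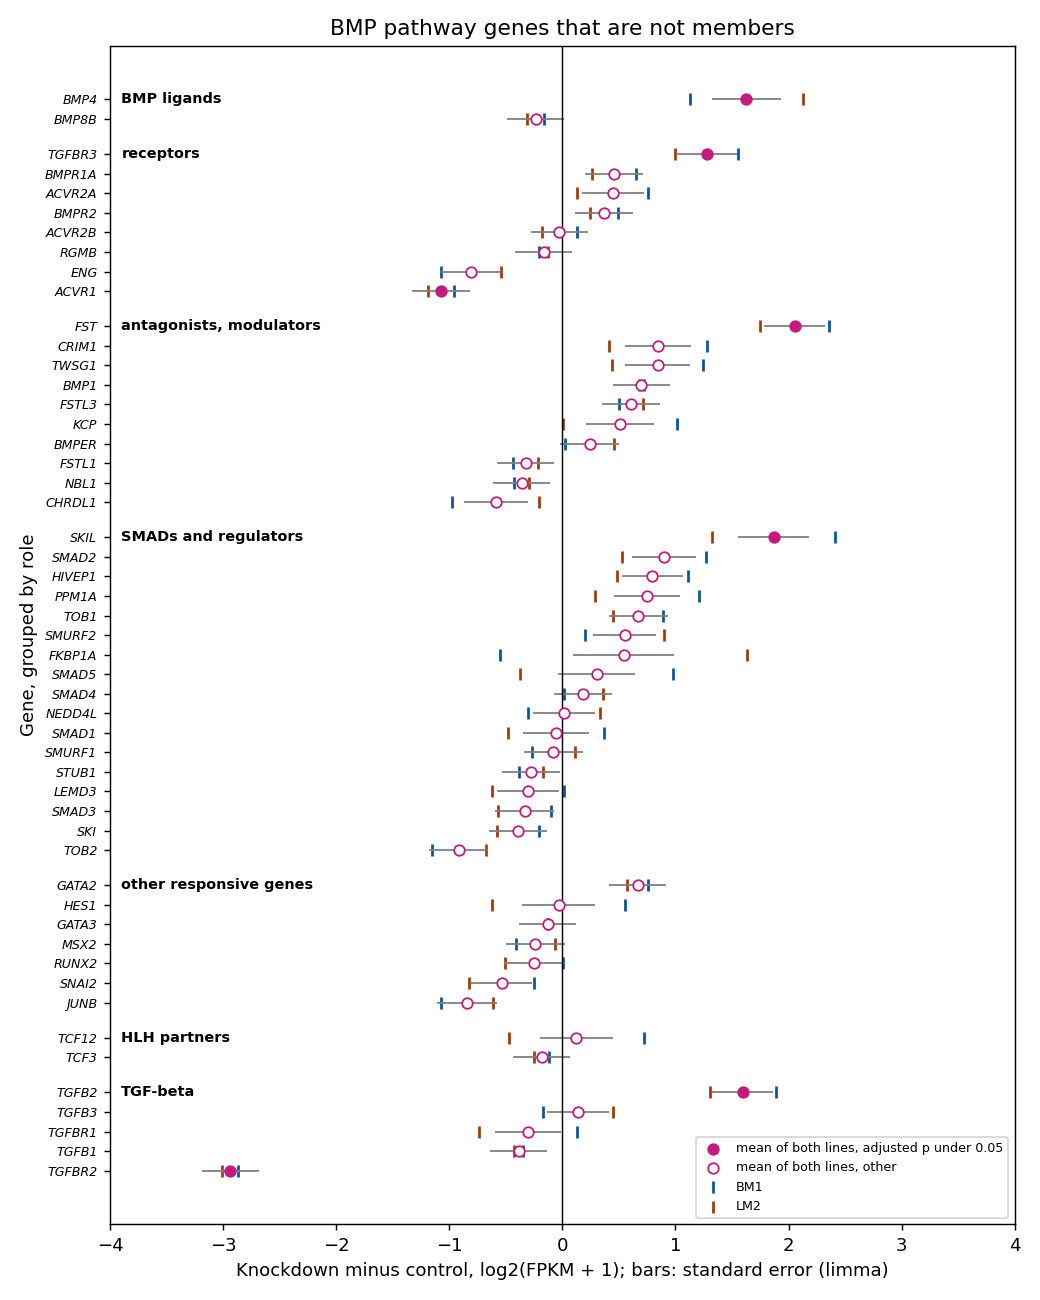
Knockdown minus control on the log2(FPKM + 1) scale for the 51 tested pathway genes outside the 10, grouped by role; circles are means over both lines with limma standard errors (filled where the adjusted p is under 0.05) and ticks are the BM1 and LM2 differences. FST and SKIL lie farthest to the right, and TGFBR2 lies farthest to the left.

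Among 15 BMP ligand genes 7 were in the table and 2 passed the filter, of which 1 rose. BMP4, a ligand for the BMP type I receptors, had 39.1 FPKM in control and 86.4 in knockdown BM1 cells and 18.4 and 84.1 as the LM2 pair, by 1.63 ± 0.30 over both lines (log2(FPKM + 1), standard error, limma adjusted p 0.0233). Its difference was larger in LM2 (2.13) than in BM1 (1.12), unlike that of ID1 and ID3, and its levels in the 2 knockdown libraries were close. BMP8B had a change of -0.24 ± 0.25 (an unadjusted p of 0.372). BMP2, named after its values were seen and below the filter, had 0.293 FPKM in control and 1.997 in knockdown BM1 cells and 0.461 and 0.255 as the LM2 pair.

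Of 8 tested receptor and coreceptor genes (of 13 in the list, 10 in the table), 1 rose and 1 fell. TGFBR3, or betaglycan, which presents TGF-beta and some BMPs to their receptors, had 5.19 FPKM in control and 17.2 in knockdown BM1 cells and 6.37 and 13.7 as the LM2 pair (1.27 ± 0.27, limma adjusted p 0.0344). ACVR1, a type I receptor for BMPs also known as ALK2, had 4.52 FPKM in control and 1.84 in knockdown BM1 cells and 6.42 and 2.25 as the LM2 pair (-1.07 ± 0.25, limma adjusted p 0.0465). The main BMP receptors BMPR1A and BMPR2, named after their values were seen, had changes of 0.46 and 0.37 with adjusted p of 0.316 and 0.406.

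Of 10 tested antagonists and modulators (of 18 in the list, 13 in the table), 1 rose and 0 fell. FST encodes follistatin, a secreted protein that binds activins tightly and some BMPs more weakly. It had 51.6 FPKM in control and 269 in knockdown BM1 cells and 26.4 and 91.1 as the LM2 pair (2.06 ± 0.27, limma adjusted p 0.01002), beside the nearly level NOG. In BM1 4 of the 10 were at least 2-fold higher (FST, CRIM1, TWSG1 and KCP, named after their values were seen), and in LM2 FST alone was, where 10.1% and 3.83% of all tested genes were.

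Of 17 tested SMADs and SMAD regulators (of 18 in the list, 17 in the table), 1 rose and 0 fell. SKIL, or SnoN, a corepressor of SMAD complexes that is itself a TGF-beta target, had 0.702 FPKM in control and 8.05 in knockdown BM1 cells and 4.39 and 12.5 as the LM2 pair (1.87 ± 0.31, limma adjusted p 0.0171). The BMP receptor SMADs, named after their values were seen, moved in opposite directions in the 2 lines and were not called. SMAD1 read 2.38 FPKM in control and 3.36 in knockdown BM1 cells, with 6.66 and 4.48 as the LM2 pair (adjusted p 0.924). SMAD5 read 7.66 FPKM in control and 16.1 in knockdown BM1 cells, with 22.4 and 17.1 as the LM2 pair (adjusted p 0.619). SMAD4, the shared partner, had a change of 0.18 (adjusted p 0.700).

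Of 7 tested genes in the list of further BMP-responsive genes (of 19, 10 in the table), 0 were called by limma in either direction. At an unadjusted limma p under 0.05, 1 (GATA2) had a higher and 1 (JUNB) a lower level. That mark was passed by 3465 of the 13928 tested genes, so these 2 do not stand apart by it. JUNB, an AP-1 subunit, had a change of -0.84 ± 0.26 (adjusted p 0.0977), GATA2, a zinc finger factor, one of 0.66 ± 0.25 (adjusted p 0.151), and SNAI2, a repressor of epithelial genes, one of -0.54 ± 0.27 (adjusted p 0.258). The median over these 7 genes was -0.24, against -0.01 over all tested genes. Of the E proteins that ID proteins bind, 2 of 3 were tested and 0 called, with an unadjusted p of 0.491 for TCF3 and 0.713 for TCF12. TCF3 had 14.3 FPKM in control and 13.2 in knockdown BM1 cells (LM2 pair 20.1 and 16.8), and TCF12 had 7.16 and 12.5 (LM2 pair 14.7 and 10.3).

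The TGF-beta branch shares SMAD7 and SMAD4 with the BMP branch. Of its 5 listed ligand and receptor genes, all tested, TGFB2 rose (1.60 ± 0.27, limma adjusted p 0.0178, with 6.64 and 27.3 FPKM as the BM1 pair and 13.5 and 34.8 as the LM2 pair). TGFBR2, the type II receptor needed for TGF-beta signalling, fell by 2.94 ± 0.25 on the log2(FPKM + 1) scale (limma adjusted p 0.00285).

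The genes whose pattern over the 4 libraries was nearest to ID1, by Euclidean distance of log2(FPKM + 1) centred on each gene's mean, were PLOD2 (0.79), TMEM123 (0.82) and KRT17 (0.83), where the median over tested genes was 2.95. PLOD2, a collagen lysyl hydroxylase, had 21.0 FPKM in control and 178 in knockdown BM1 cells and 37.8 and 84.4 as the LM2 pair, above the ID1 level in each library. Nearest to ID3 were CYP1B1 (1.11), ATOH8 (1.16) and KRT17 (1.18), with a median of 3.96. KRT17, a keratin of basal epithelium, had 0.530 FPKM in control and 15.02 in knockdown BM1 cells and 3.06 and 12.8 as the LM2 pair. With 4 libraries, likeness of this kind describes the values and no more.

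These genes differ in length and base composition, which can bear on FPKM values when libraries differ in quality. ID1 and ID3 have short transcripts of 1233 and 1251 bases with 58.6% and 57.2% GC, against medians of 2958 bases and 48.6% over tested genes. After the trend of each library with GC content and length was removed, an alternative chosen after seeing the data, the ID1 difference was 4.28 in BM1 and 1.01 in LM2, so that ID1 also passed 2-fold in LM2. The ID3 differences became 5.31 and 2.30, and those of ATOH8 4.76 and 2.38 (log2(FPKM + 1)).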

How the data were processed

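RNA of 4 cultures was measured by stranded paired-end sequencing of polyadenylated RNA, per the labels' protocols. The authors deposited 1 table of FPKM values with 1 column per library. The submitters' processing notes name STAR 2.5.3a, Cuffdiff 2.2.1 and GRCh37. For the annotation release and strand setting, nothing is given in the sources used here. The 40 entries that repeat a gene ID were left out, which left 20329 genes. No count test was run, because most values are not whole fragments.

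The 10 genes and the pathway lists were chosen with earlier results of these data known. All 10 genes are named, as are HNRNPM, the pathway genes called in each list (the 3 largest changes where none was called) and the 3 genes nearest to ID1 and to ID3.

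Values were analysed as log2(FPKM + 1). Genes with a mean of at least 1 FPKM (13928) entered limma 3.58.1 (R 4.3.3) with terms for line and treatment, two-sided, adjusted by Benjamini-Hochberg over all of them with a threshold of 0.05. The line pairs a knockdown library with its control, since both come from the same cell line. An exact permutation test of 2 libraries against 2 cannot reach 0.05, and none was run. Each line has 1 library per treatment, so differences within a line carry no test. The limma p-values rest on the difference between the lines in the knockdown change, with 1 residual degree of freedom per gene. By empirical Bayes, limma draws each gene's variance toward a value shared by all genes. No p-value measures the spread between replicate cultures.

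Depth was inferred from low values: in 1623 genes with 1 transcript in GENCODE 29, FPKM times length fell within 0.02 of whole multiples of 1 step for 36.6% to 45.0% of values up to 10 steps, against 2.22% to 2.96% for other steps. Fragment numbers of a gene are estimates from this step and its longest coding transcript, and their 95% Poisson intervals cover counting error only. Alternatives were pseudocounts of 0.1 and 0.5, size factors, quantile normalization, no filter, a 1.5-fold rule, no pairing, and each library left out. Removal of the GC and length trends (natural splines, 13723 genes with both values) was added after seeing the data.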

Additional observations from a re-analysis of the deposited data

Results flagged for a closer look

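SMAD9 of the 10 genes and TCF12, SMAD1, SMAD5 and BMP2 of the other named genes had opposite signs in the 2 lines. Among the 51 tested pathway genes 12 did. The same count was not made over all tested genes, so nothing particular to these genes follows from it. SMAD9 differed between knockdown and control by 0.17 in BM1 and by -0.17 in LM2 (log2(FPKM + 1)), at 16 to 56 estimated fragments per library. TCF12 differed by 0.72 in BM1 and by -0.48 in LM2, SMAD1 by 0.37 and -0.48, SMAD5 by 0.98 and -0.37 and BMP2, which is below the filter, by 1.21 and -0.22. The difference between the lines was not tested for any of these genes, since 4 libraries leave no degree of freedom for it.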

How the results depend on the processing

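The number of the 10 genes at least 2-fold changed was 7 in BM1 under both pseudocounts, both scalings and with the GC and length trend removed, and 8 with a 1.5-fold rule. In LM2 it was 5 under both pseudocounts and both scalings, and 6 with the trend removed or a 1.5-fold rule. SMAD9, below the filter, has no value with the trend removed. No difference of 2-fold or more changed sign in these settings, but sizes moved. The BM1 difference ranged from 2.45 to 4.91 for ID2, 4.45 to 6.28 for ATOH8 and 2.84 to 4.03 for ID4. It ranged from 2.04 to 2.87 for SMAD7 and from 3.93 to 4.28 for ID1. In LM2 the range was 1.52 to 2.37 for ID2 and 2.24 to 2.91 for ATOH8. No library could be left out within a line, which has 1 per arm.

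The limma counts depended on the settings. Of 762 genes called in the knockdown contrast, a pseudocount of 0.1 left 27, taking out the GC and length trend left 336, and quantile normalization or no filter 0. Of 606 called between lines, these counts were 216 for the 0.1 pseudocount, 104 for quantile normalization and 0 without the filter (3634 at an unadjusted p under 0.05). Without the pairing block, 0 genes were called in the knockdown contrast and 11 between lines. Leaving out any 1 library gave 0 called in the knockdown contrast and 6 to 28 between lines, in fits that also lack the other factor. The 7 called pathway genes became 6 with a pseudocount of 0.5, 5 with the GC and length trend removed, 1 with a pseudocount of 0.1, 0 with quantile normalization, 0 without the filter, 0 without the pairing block, and 0 without any 1 library. The cause of these losses was not tested, except that fits without a library or the block also lose the pairing.

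The difference between lines turned sign in some fits without a library. It ranged from -1.74 to 2.23 for ID1, -1.21 to 1.31 for ID2, -1.89 to 3.12 for ID3, -2.78 to 0.17 for ID4, -2.77 to 1.77 for ATOH8, -0.97 to 0.56 for SMAD6 and -0.95 to 1.19 for SMAD7. BAMBI and NOG kept their sign. In the knockdown contrast the same fits gave -0.41 to 0.0490 for TCF3, -0.35 to 0.60 for TCF12 and -1.14 to 0.0686 for SNAI2, and taking out the GC and length trend gave -0.19 for TCF12. Depth limits ID2 in the BM1 control, ID4 in LM2 and SMAD9 throughout.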
